A study of Mus musculus with 6 samples.

Results

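Aerocytes, also called alveolar capillary cells, are 1 of the capillary endothelial types of the lung, and 7 genes often used to recognise them were followed through the lungs of newborn and juvenile mice: Car4, Ednrb, Fibin, Apln, Tbx2, Chst1 and Prx. They were taken by gene symbol, 7 of the 32285 genes counted in every library, and all 7 were found. Each was read in every cell class the authors named, endothelial classes first.

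Aerocytes are large, thin, branched cells spread over the gas exchange surface, where they lie against the thin alveolar epithelial (AT1) cells. The other capillary type, the general capillary cell, is smaller, divides and can give rise to both types. Aerocytes appear shortly before birth, depend on vascular endothelial growth factor from AT1 cells, and secrete apelin, whose receptor is carried by general capillary cells. Among the 7 genes, Apln encodes the apelin peptide and Ednrb the endothelin receptor type B. Tbx2 encodes a T-box transcription factor. Car4 encodes carbonic anhydrase 4, an enzyme held on the outer cell surface that interconverts carbon dioxide and bicarbonate, and Chst1 a sulfotransferase of the Golgi. Fibin encodes a small secreted protein first described in the fish fin bud, and Prx encodes periaxin, a scaffold protein best known from myelinating Schwann cells.

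Whole lungs were dissociated and sorted for live cells, whose RNA was counted cell by cell, from wild-type C57BL/6N mice. The 6 libraries each pooled 3 mice of 1 sex. They were female and male in room air (21% oxygen) at postnatal day 1, female and male in room air at day 21, and female and male at day 21 after hyperoxia. Hyperoxia was 95% oxygen from day 1 to day 5, and the pups then returned to room air. Pups of different litters had been randomized to the exposures. With 1 library per sex and condition, the sexes stood in for replicates. The spread behind the p-values came from single pools and was largely shared across genes by edgeR. A small p-value therefore does not show that the pools agreed for that gene. No group carried a transgene or deletion.

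Library totals ran from 122173482 to 163649658 unique molecular identifiers (UMIs, each 1 counted RNA molecule). The authors' aerocyte class, named aCap, held 443 and 484 cells at day 1 (female, male), 916 and 682 in room air at day 21, and 929 and 1301 after hyperoxia. The median aCap cell had 5417 to 5798 UMIs at day 1 and 11076 to 12423 at day 21. Levels were counts summed over the cells of a class in a library and scaled to the UMI total of that class (CPM). Day 1 counts were made with Cell Ranger 6.0.0 and day 21 counts with 7.0.1, so age and software version cannot be told apart. The female hyperoxia library had fewer cells with Xist, the RNA of the inactive X chromosome. A UMI of it was found in 71.6% of its aCap cells, against 94.4% and 97.8% in the other female libraries. Whether male cells were mixed in was not settled. The tests that use this library were therefore repeated without its cells lacking Xist, except in myofibroblasts, which then had under 50 cells. At most 37 cell barcodes were shared by any pair of libraries.

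The aCap class carried the endothelial markers. Pecam1, Cdh5, Tie1, Cldn5 and Egfl7 summed to between 9629 and 11620 CPM over the 6 libraries. The 7 members summed to 3682 to 8371 CPM in aCap and to 427 to 701 CPM in gCap, the authors' general capillary class. These classes were clustered on the same genes, so differences in level between classes are given without a test.

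All 7 genes are protein coding in GENCODE M21 (GRCm38). Car4 lies on chromosome 11 at 84957786 to 84966044 on the plus strand, and Tbx2 on the same strand and chromosome at 85832551 to 85841948. Ednrb lies at 103814625 to 103844402 on the minus strand of chromosome 14. Fibin lies at 110360917 to 110363183 on the minus strand of chromosome 2, and Chst1 on the plus strand of that chromosome at 92599707 to 92615250. Apln lies at 48025146 to 48034853 on the minus strand of chromosome X, and Prx at 27499324 to 27520214 on the plus strand of chromosome 7. Fibin has 1 exon and no intron, while the other 6 have between 5772 and 25512 intron bases. The antisense gene Gm15541 overlaps Prx and had 26 to 598 UMIs in aCap where Prx had 1621 to 13685, and whether the counting used strand was not given in the sources used here.

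RefSeq promoter windows (GRCm38.p6, 250 bases before to 50 after the start) matched 6 of the 7 members. The windows of Fibin and Car4 are shown because these genes had the largest change with age in aCap and the changes after hyperoxia in other vessels. Both are written 5′ to 3′ on the gene's strand, and capitals mark the motif letters searched on both strands. In the first window, chr2:110362944-110363243 (minus strand), CACACC is the reverse complement of the T-box motif GGTGTG.
Fibin: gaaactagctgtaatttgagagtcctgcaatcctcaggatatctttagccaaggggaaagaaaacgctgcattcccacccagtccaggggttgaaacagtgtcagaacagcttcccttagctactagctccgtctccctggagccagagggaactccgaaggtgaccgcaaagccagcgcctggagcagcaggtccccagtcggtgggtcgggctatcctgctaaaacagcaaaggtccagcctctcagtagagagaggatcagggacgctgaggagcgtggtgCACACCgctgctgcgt
In the second, chr11:84957504-84957803 (plus strand), TTCCGGAA holds the ETS core CCGGAA and its reverse complement TTCCGG, which overlap. CACGT is the reverse complement of ACGTG, the core of the hypoxia response element, and TATAAA matches the TATA motif, here after the start.
Car4: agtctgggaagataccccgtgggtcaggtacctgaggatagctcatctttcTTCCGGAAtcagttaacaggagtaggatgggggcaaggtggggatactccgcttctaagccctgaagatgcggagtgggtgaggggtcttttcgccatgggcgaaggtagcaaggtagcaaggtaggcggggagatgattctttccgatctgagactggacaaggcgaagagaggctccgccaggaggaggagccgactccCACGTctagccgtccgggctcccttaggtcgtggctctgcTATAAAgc
Such letters are common. The T-box motif was in 19% of 32851 promoter windows of this length, the ETS core in 14.9%, the hypoxia core in 19.6% and the TATA motif in 13.6%. The windows of Apln, Ednrb, Chst1 and Prx held none of these 4 motifs, and Tbx2 had no window.

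At day 21 the aCap class had the highest level of all 7 genes among the 14 classes with at least 50 cells in each day 21 library, and its range over those libraries did not overlap that of the next class. The next class was alveolar macrophages for Car4 (275 to 497 CPM, against 2265 to 2685 in aCap). It was myofibroblasts for Ednrb and Tbx2, matrix fibroblasts for Fibin, Apln and Chst1, and gCap for Prx. Further down the order many neighbouring classes overlapped. Pericytes, with 876 to 995 CPM of Tbx2 against 926 to 973 in aCap, overlapped aCap but had only 46 cells in male room air and so were not ranked.

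At day 1, among 20 classes, aCap was not the highest for 2 of the 7. Fibin was highest in myofibroblasts (328 to 576 CPM), then in matrix fibroblasts (228 to 323), and then in aCap (84.2 to 99.9), with no overlap between these 3 ranges of 2 libraries each. Tbx2 was highest in pericytes, a class not ranked at day 21 (619 to 669 CPM), above aCap (520 to 544). Car4, Ednrb, Apln, Chst1 and Prx were highest in aCap among the 20 classes of that age. Car4 in alveolar macrophages was no trace level, since 53.7% to 89.98% of these cells had a Car4 UMI over the 6 libraries.

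**Figure D1:**
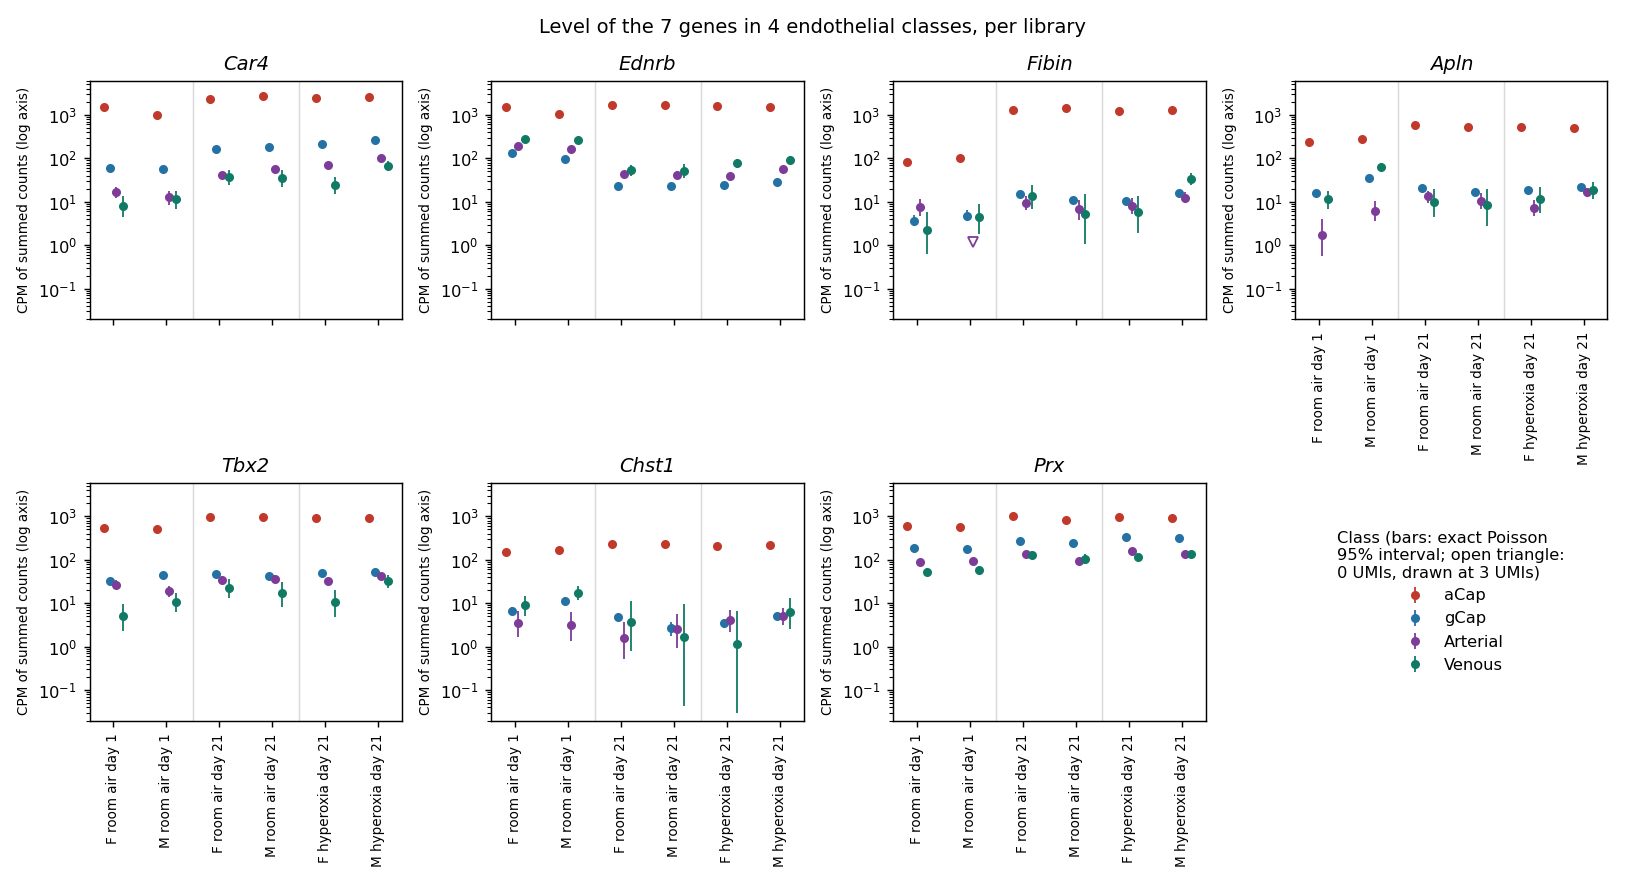
Level of each of the 7 genes (CPM, log axis) in the 4 endothelial classes, 1 point per library, with exact Poisson 95% intervals that cover counting error only; an open triangle marks a count of 0, drawn at 3 UMIs. Fibin in aCap lies at 84.2 and 99.9 CPM at day 1 and between 1256 and 1409 CPM at day 21.

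RNA free in the suspension can put UMIs into cells that do not make them. Its level was not measured, and neutrophils served as a low comparison class. Car4 was at 3.08 to 15.5 CPM in neutrophils, with a UMI in 1.11% to 6.87% of these cells, and Fibin at 0.436 to 3.62 CPM. Other classes outside the vessels had more Car4 at day 1, such as AT1 cells (22.1 to 34.2 CPM) and transient macrophages (36.3 to 46.4 CPM). By contrast, 91.1% to 100% of aCap cells had a Car4 UMI and 93.2% to 100% an Ednrb UMI. Median depth differed between the classes, so shares of cells were also taken after thinning each cell to 2000 UMIs.

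Between the capillary classes the members differed in how far they separated aCap from gCap. Fibin was the steepest at day 21, at 83.8 to 131 times its gCap level. Ednrb stood at 51.3 to 74.5 times and Chst1 at 42.8 to 85.2 times. Apln, Tbx2 and Car4 were at 22.7 to 30.3, 17.9 to 22.6 and 9.77 to 14.5 times. Prx had the smallest ratio, 2.92 to 3.60 times, and at day 1 it was 3.26 and 3.27 times. Periaxin RNA was thus shared by both capillary classes at both ages, with 177 to 329 CPM in gCap.

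Shares of each gene's UMIs were taken over cells with a class. Barcodes without a class were left out, and they held Fibin at 13.4 (female) and 10.4 CPM (male) at day 1. In room air at day 21 they held it at 111 and 79.6 CPM. The share that came from aCap rose between the ages. The aCap class itself went from 3.84% and 4.29% of the cells with a class to 9.64% and 10.8% in room air. For Fibin, aCap gave 3.37% (female) and 12.3% (male) of its UMIs in cells with a class at day 1. It gave 95.6% and 97.1% at day 21 in room air. For Ednrb the same shares were 32.7% and 38.5%, then 94.9% and 93.8%. Both genes were mostly read in other cells of the newborn lung, as were Tbx2, Chst1 and Prx. At day 1 aCap gave 20.9% and 32.4% for Tbx2, 32.4% and 35.0% for Chst1 and 27.7% and 33.6% for Prx. For Car4 it gave 52.6% and 43.15%, and for Apln 51.15% and 51.8%. Prx was the most widely spread at day 21, with 57.2% to 67.3% of its UMIs in aCap over the 4 libraries, followed by Car4 (74.0% to 82.6%) and Tbx2 (74.4% to 81.3%), whose ranges overlapped. The growing number of aCap cells is part of these shares, which is why levels within a class are compared next.

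**Figure D2:**
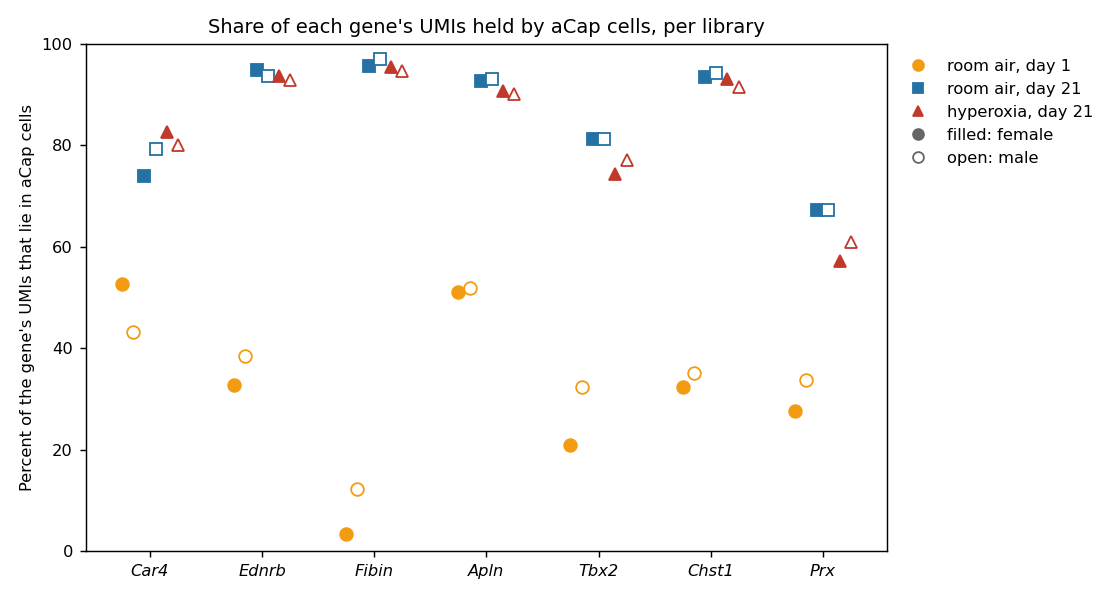
Percent of each gene's UMIs, over all cells with a class, that came from aCap cells, 1 point per library. The Fibin points are at 3.37% and 12.3% at day 1 and between 94.7% and 97.1% at day 21.

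Single aCap cells carried more of the 7 genes at day 21. After thinning to 2000 UMIs, an aCap cell had a mean of 3.67 (female) and 3.60 (male) members at day 1. The mean was 5.35 and 5.36 in room air at day 21 and 5.27 in both hyperoxia libraries. At least 5 members were found in 25.9% and 24.95% of aCap cells at day 1, in 81.5% and 82.0% in room air at day 21, and in 79.1% and 78.5% after hyperoxia. Without thinning, which also keeps the cells under 2000 UMIs, the median over libraries was 68.6% at day 1 and 99.3% at day 21, so these shares depend strongly on depth. In gCap the thinned mean was 0.600 to 0.941 members, and 94.2% to 97.9% of neutrophils had none.

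Fibin was the member that most set the ages apart cell by cell. A Fibin UMI was found in 8.80% and 10.97% of thinned aCap cells at day 1, and in 81.4% and 81.7% in room air at day 21. At least 3 Fibin UMIs were found in 1.16% and 2.80% of them at day 1 and in 43.6% and 48.9% at day 21. Over 126 pairs of members and libraries, the correlation across thinned aCap cells ran from -0.06 to 0.34 with a median of 0.05. The highest was Car4 with Ednrb in female day 1 cells (0.34, 432 cells). Counting noise lowers such values, since a thinned aCap cell held a mean of 0.315 to 0.475 Chst1 UMIs over the libraries, so they do not show whether the members vary together.

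**Figure D3:**
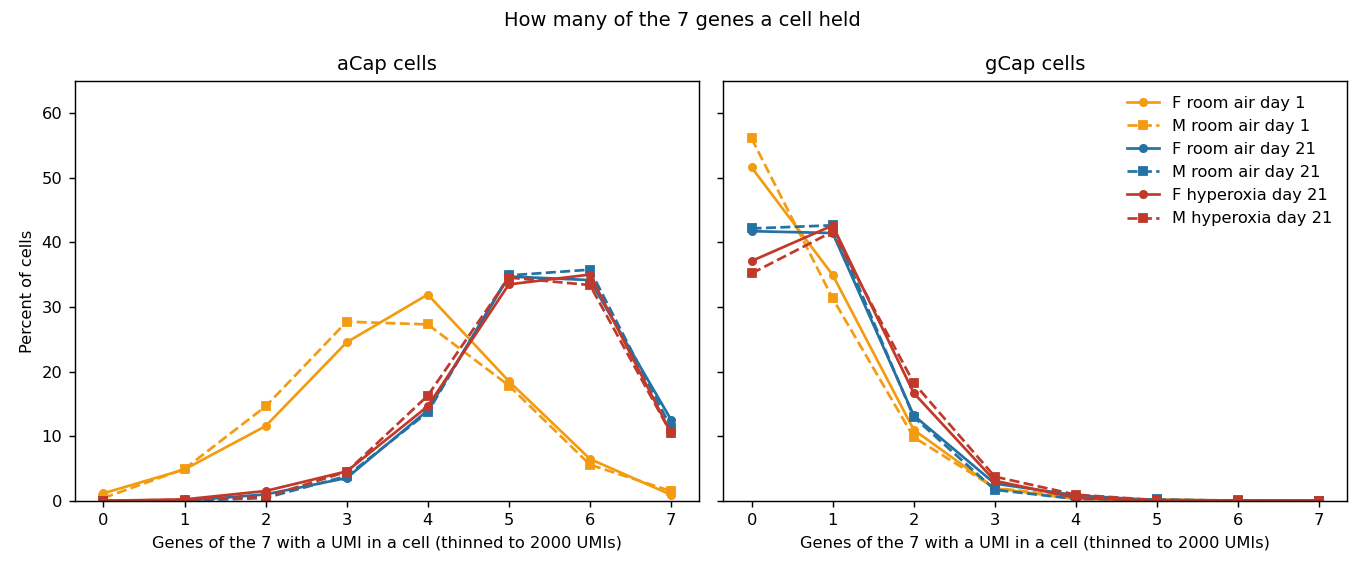
Percent of aCap and of gCap cells with 0 to 7 of the genes detected, after thinning each cell to 2000 UMIs, 1 line per library. At least 5 genes were found in 24.95% and 25.9% of aCap cells at day 1 and in 78.5% to 82.0% at day 21.

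Day 21 was compared with day 1 in room air to ask how the genes change while the alveoli form. Counts summed per library and class were tested with edgeR's quasi-likelihood test with sex as a covariate, and a gene was called at a Benjamini-Hochberg adjusted p under 0.05 over all genes of the class. In aCap all 7 members were called higher at day 21, where 53.5% of the 12081 genes tested were called and 28.6% were called higher. The members' log2 changes ran from 0.32 to 3.79 and their median was 0.77, while the median over all genes tested was 0.03. For all 7, the room air libraries of day 1 and day 21 did not overlap. Values of these changes are log2 with their standard error (SE).

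Markers of other cell types also moved in aCap between the ages. Over the female and male libraries, the 5 lymphatic markers summed to 1476 and 1427 CPM at day 1 and to 269 and 234 CPM at day 21, with Ccl21a at 0 in all of them. The 5 venous markers went from 207 and 173 CPM to 33.0 and 37.4 CPM, the 5 gCap markers from 1130 and 1365 CPM to 847 and 839 CPM, and the 5 AT2 (surfactant-producing epithelial) markers from 562 and 891 CPM to 197 and 258 CPM. The 5 immune markers went from 269 and 156 CPM to 85.0 and 50.5 CPM and the 4 neutrophil markers from 1430 and 673 CPM to 414 and 62.2 CPM, while the 5 AT1 markers went from 1043 and 798 CPM to 1066 and 1450 CPM. The 4 erythroid markers summed to 2187 (female) and 11.4 CPM (male) at day 1 and to 3.08 and 5.81 CPM at day 21. For each of these lists the ages did not overlap, and the part of these RNAs in the members' changes was not tested.

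Fibin rose the most. Its aCap level was 84.2 (female) and 99.9 CPM (male) at day 1 and 1284 and 1409 CPM at day 21, a log2 change of 3.79 (SE 0.169, edgeR adjusted p = 1.23e-106, 13.8-fold). Under the alternatives this change stayed called in every one tried. Apln, the ligand, went from 242 and 282 CPM to 584 and 521 CPM, a log2 change of 0.99 (SE 0.153, edgeR adjusted p = 6.93e-10).

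Car4 was at 1530 and 976 CPM at day 1 and at 2265 and 2685 CPM at day 21, a log2 change of 0.93 (SE 0.143, edgeR adjusted p = 7.72e-10). Its day 1 libraries were far apart, and DESeq2 gave an adjusted p of 0.114. The transcription factor Tbx2 went from 544 and 520 CPM to 953 and 973 CPM, a log2 change of 0.77 (SE 0.147, edgeR adjusted p = 9.06e-07). Its libraries were close together within each age.

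Prx, Chst1 and Ednrb changed least. Prx went from 597 and 576 CPM to 998 and 836 CPM, a log2 change of 0.55 (SE 0.147, edgeR adjusted p = 0.00053), which was not called without the male day 1 library (0.55). Chst1 went from 148 and 167 CPM to 230 and 226 CPM, a log2 change of 0.45 (SE 0.158, edgeR adjusted p = 0.00966), which was not called with DESeq2 (0.43) or without the female day 1 library (0.35). Ednrb was at 1520 and 1061 CPM at day 1 and at 1658 and 1720 CPM at day 21. Its change of 0.32 (SE 0.142, edgeR adjusted p = 0.0435) was called in only 7 of 13 alternatives and was 0.08 without the male day 1 library. The receptor gene was thus already near its later level in the female newborn library.

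Genes without introns moved apart from the rest between the ages. In aCap the 456 such genes tested had a median log2 change of -0.53, against 0.06 for genes with introns. Fibin has no intron and rose by 3.79. Scaling the libraries on genes without introns, an alternative chosen after seeing the data, gave 4.37 for Fibin, 1.58 for Apln, 1.51 for Car4, 1.36 for Tbx2, 1.14 for Prx, 1.04 for Chst1 and 0.91 for Ednrb, all called. That scaling moved the median of all genes in aCap to 0.62 and split the calls into 6827 higher and 1228 lower, against 3453 and 3011 with the main scaling. The part of the counting software in these changes was not tested.

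In the other vessels the same genes moved in both directions. In gCap, where 67.6% of genes were called, 35.1% higher and 32.5% lower, 6 of the 7 members were called, 3 higher and 3 lower. Ednrb fell from 134 and 95.7 CPM to 23.4 and 23.1 CPM, a log2 change of -2.42 (SE 0.134, edgeR adjusted p = 1.32e-21). Chst1 fell from 6.60 and 11.4 CPM to 4.82 and 2.65 CPM, a log2 change of -1.31 (SE 0.264, edgeR adjusted p = 2.4e-05), and was not called after thinning (-0.59) or without the male day 21 library. Low counts lie behind those Chst1 levels. Marker sums moved in gCap as well. Lymphatic markers went from 1494 and 1330 CPM to 597 and 524 CPM. AT2 markers went from 659 and 924 CPM to 351 and 251 CPM, and AT1 markers from 321 and 335 CPM to 191 and 216 CPM. The gCap markers rose from 3187 and 3152 CPM to 7142 and 6789 CPM, and arterial markers from 718 and 828.5 CPM to 1572 and 1457 CPM. Their part in the members' changes was not tested.

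Car4 rose in gCap from 60.6 and 56.7 CPM to 161 and 186 CPM, a log2 change of 1.43 (SE 0.121, edgeR adjusted p = 6.59e-15). Fibin rose from 3.69 and 4.80 CPM to 14.9 and 10.8 CPM, a log2 change of 1.49 (SE 0.223, edgeR adjusted p = 8.32e-08), while its neutrophil level went from 0.436 and 0.440 CPM to 3.62 and 2.70 CPM, and the part of free RNA in it was not tested. Prx rose by a log2 change of 0.42 (edgeR adjusted p = 0.00137), and lost its call when either day 1 library was left out. Apln was called lower (-0.43, edgeR adjusted p = 0.0486), but only 3 of 13 alternatives called it, and it was 0.20 without the male day 1 library and 0.18 with the intronless scaling. Tbx2 was at 0.11 with an approximate 95% interval of -0.16 to 0.39. With the intronless scaling the gCap changes were 2.04 for Car4, 2.10 for Fibin, 1.02 for Prx, 0.72 for Tbx2 (then called), -1.81 for Ednrb and -0.71 for Chst1.

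Arterial and venous cells resembled gCap in the direction of Ednrb and Car4. In arterial cells, where 58% of genes were called (30.2% higher, 27.8% lower), Ednrb fell from 193 and 160 CPM to 44.4 and 41.7 CPM (log2 -2.13, edgeR adjusted p = 9.33e-15). In venous cells, where 49% were called (25.3% higher, 23.6% lower), it fell from 280 and 259 CPM to 53.2 and 51.3 CPM (log2 -2.49, edgeR adjusted p = 8.03e-21). Endothelin receptor B RNA was thus higher in each of these newborn vessel classes than at day 21. Car4 rose in both, with log2 changes of 1.58 and 1.79 (edgeR adjusted p = 2.27e-07 and 7.04e-05), the venous call being lost with DESeq2. Apln rose in arterial cells (1.54, edgeR adjusted p = 0.00285) and fell in venous cells (-1.83, edgeR adjusted p = 0.00014), from few UMIs. The venous fall rests on the male day 1 library, where Apln was at 63.1 CPM, against 11.4 CPM in the female day 1 library and 10.1 and 8.54 CPM at day 21; without the male day 1 library the gene did not pass the filter on low counts. Neither Apln call held with DESeq2. The arterial one was lost without the female day 1 (0.79) or female day 21 library (1.33), and the venous one without either day 21 library. Tbx2 was called higher in both classes (0.52 and 1.26), but each call was lost without either day 21 library. In venous cells Prx was called higher (0.97) and Chst1 lower (-2.22, and -1.93 and not called without the male day 21 library), while in arterial cells Fibin (1.13) and Prx (0.21) were not called.

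The age change itself differed between aCap and gCap for 6 of 7 members, where 24.8% of genes were called in that test. The classes were clustered on these same genes, so how cleanly they were split at each age enters these differences. Its part was not tested. Ednrb changed by 2.69 more on the log2 scale in aCap (SE 0.0779, edgeR adjusted p = 1.57e-13), Fibin by 2.24 more (SE 0.233, edgeR adjusted p = 1.22e-06) and Chst1 by 1.71 more (SE 0.232, edgeR adjusted p = 2.45e-05; 1.06 and called after thinning). Apln changed by 1.42 more (edgeR adjusted p = 2.44e-05) and Tbx2 by 0.62 more (edgeR adjusted p = 0.00166, not called with DESeq2, 0.64). Without the female day 1 library Tbx2 was at 1.01 and without the male one at 0.42, both called. These are the genes whose ratio between the capillary classes widened. For Car4 the difference was -0.57 (SE 0.114, edgeR adjusted p = 0.00112), since gCap gained more, but it was not called without the female day 1 library (-0.17) or with DESeq2 (-0.54), and was -0.94 and called after thinning. For Prx it was 0.10, with an approximate interval of -0.04 to 0.24.

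**Figure D4:**
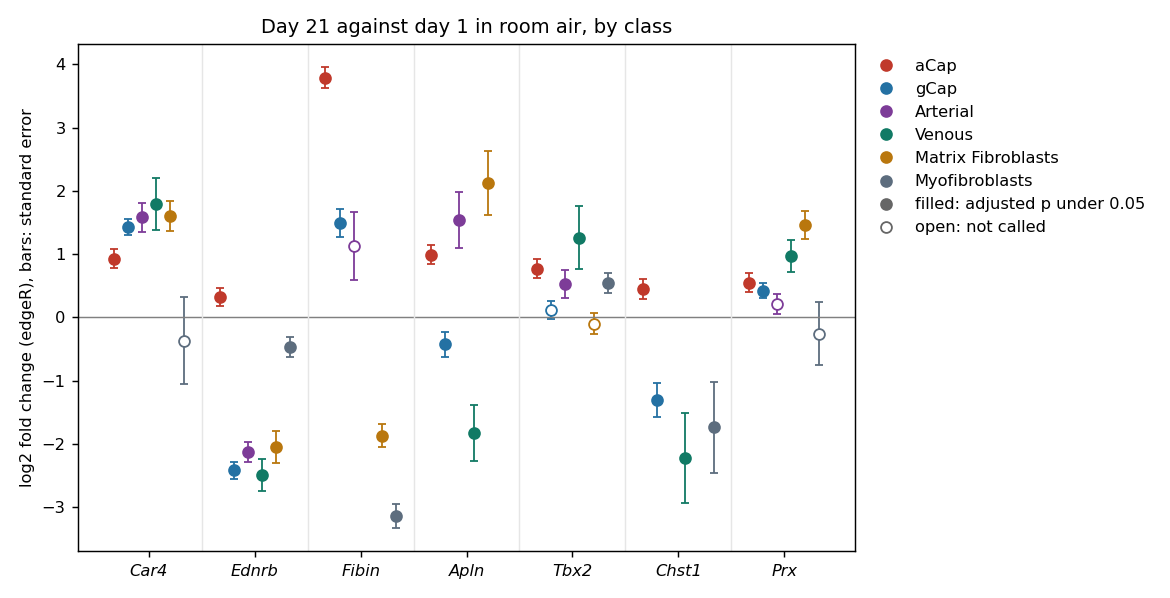
Log2 change from day 1 to day 21 in room air (positive is higher at day 21) with its standard error, for each gene in 6 cell classes. Fibin stands at 3.79 in aCap and at -3.14 in myofibroblasts, and Ednrb at 0.32 in aCap and -2.42 in gCap.

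Outside the vessels, Fibin fell in the classes that had the most of it in the newborn. It fell in myofibroblasts from 576 and 328 CPM to 62.6 and 43.3 CPM, a log2 change of -3.14 (SE 0.191, edgeR adjusted p = 1.75e-12) in a class where 50.8% of genes were called. In matrix fibroblasts (48% called) it fell from 323 and 228 CPM to 91.7 and 78.6 CPM, a log2 change of -1.87 (SE 0.179, edgeR adjusted p = 5.19e-08). Fibin thus fell in both mesenchymal classes and rose in aCap between the 2 ages. Alveolar macrophages (53.8% called) lost Chst1, from 17.0 and 18.0 CPM to 0.761 and 1.87 CPM (log2 -4.17, edgeR adjusted p = 3.03e-09). Ednrb was called lower there too (log2 -2.88, edgeR adjusted p = 9.53e-07), from levels between 8.09 and 17.0 CPM at day 1. At that age Ednrb was at 3.08 to 5.45 CPM in neutrophils and at 8.70 to 21.9 CPM in B cells. The part of free RNA in the macrophage change was not tested. Ednrb also fell in matrix fibroblasts (log2 -2.05, edgeR adjusted p = 1.19e-06), a call lost after thinning (-0.66). Of all genes, 3049 were called higher and 2907 lower in myofibroblasts, and 2721 and 2404 in matrix fibroblasts. The same counts were 3171 and 2744 in alveolar macrophages, 2377 and 1933 in NK cells and 3355 and 2959 in neutrophils. In B cells 4728 of 9661 genes were called and no member was. Of the 14 member calls in non-endothelial classes, 8 were lower at day 21 and 6 higher. Those not given above were lower Ednrb (-0.47, but 0.31 with the intronless scaling) and Chst1 and higher Tbx2 in myofibroblasts. In matrix fibroblasts they were higher Car4, Prx and Apln. The rest were lower Ednrb in NK cells (45.1% called, 10.6 to 12.4 CPM at day 1) and higher Car4 and Fibin in neutrophils (63.6% called). Neutrophils, the low comparison class for free RNA, had 3.08 to 6.10 CPM of Car4 and 0.436 to 0.440 CPM of Fibin at day 1. The part of free RNA in the NK cell and neutrophil calls was not tested.

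Genes known to go with aerocytes moved in the same fit as the members. Of 15 other aerocyte-associated genes, 13 were called higher and 1 lower in aCap at day 21, with a median of 1.19, where 28.6% of all genes were called higher. The scaling on genes without introns gave 14 higher and 0 lower with a median of 1.78. Rprml rose by 6.20, Nckap5 by 3.05, Cyp4b1 by 2.37 and Icam1, an adhesion protein to which leukocytes bind, by 1.91 on the log2 scale. Clec14a changed by -0.60. Of 12 general capillary genes, 4 were called higher and 5 lower in aCap, with a median of -0.21, while that scaling gave 6 higher and 4 lower with a median of 0.38. Among those lower were Cd93 (-2.38), the apelin receptor Aplnr (-1.92), the stem cell factor receptor Kit (-1.40) and Gpihbp1 (-1.04). All 12 general capillary genes changed less in aCap than in gCap when the change was compared between the classes (median -1.82). Of the 15 aerocyte-associated genes, 9 were called as changing more in aCap and 4 as changing less (median 0.35), where 24.8% of all genes were called. In gCap itself 9 of 14 of them were called higher (median 0.51), where 35.1% of all genes were.

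Partners of the members were read out from lists as well, against 28.6% of all genes called higher and 24.9% lower in aCap. Of 6 apelin and endothelin pathway genes tested in aCap, Apln and Ednrb among them, 3 were called higher and 3 lower. The endothelin-converting enzyme Ece1 rose by 0.60, while the ligand genes Edn3 and Edn1 changed by -2.49 and -1.83. In the vascular endothelial growth factor list, 6 of 12 were called higher and 3 lower, with Vegfd at 2.44, the co-receptor Nrp1 at 1.41, Nrp2 at -2.61 and Vegfa at -1.31. Among T-box genes, 3 of 5 rose, Tbx2 with Mga (0.52) and Tbx3 (0.45), and none fell. Of 7 sulfotransferases, 4 were called higher, among them Chst1 itself and Chst11 (1.94), and 1 lower, Chst7 (-1.14). Of 5 carbonic anhydrases, Car4 itself was called higher and Car2 lower (-0.66), and of 4 genes in the periaxin list, Prx itself was called higher and its partner Ahnak lower (-2.44). With the scaling on genes without introns the sulfotransferases became 5 higher and 0 lower, the carbonic anhydrases 2 higher and 0 lower, the periaxin list 3 higher and 1 lower and the growth factor list 8 higher and 3 lower, so the lower calls of Chst7 and Car2 were lost. All 7 cycling genes were lower, with a median of -3.02 (6 of 7 with that scaling).

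After hyperoxia and recovery, none of the 7 members was called in aCap at day 21, where 0.709% of 12977 genes were called, and none of them was below an unadjusted p of 0.05 (1013 genes were). Log2 changes against room air ran from -0.12 to 0.05. Fibin was at 1284 and 1409 CPM in room air and at 1256 and 1303 CPM after hyperoxia, a change of -0.07 with an approximate 95% interval of -0.21 to 0.07. Car4 was at 2265 and 2685 CPM and at 2489 and 2614 CPM, a change of 0.05 (-0.10 to 0.20). The room air and hyperoxia libraries overlapped for both genes.

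The other 5 members had intervals within -0.27 and 0.18. Ednrb was at -0.12 (-0.27 to 0.03), Chst1 at -0.10 (-0.25 to 0.06), Tbx2 at -0.04 (-0.18 to 0.10), and for these 3 genes each hyperoxia library was below each room air library. Apln was at -0.09 (-0.23 to 0.05) and Prx at 0.03 (-0.11 to 0.18). DESeq2 and the other 11 alternatives also called none. Leaving out female hyperoxia cells without Xist gave 0.04 for Car4 and -0.04 for Fibin. The other aerocyte-associated genes matched the members here, with 0 of 15 called and a median of -0.09.

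Some general capillary genes were called in aCap after hyperoxia. Of 12 tested, 4 were called higher and none lower, with a median of 0.43, where 63 of 12977 genes were called higher. They were Plvap (0.71), a protein of endothelial diaphragms, Cd93 (0.63), Ptprb (0.59) and Adgrl3 (0.43). Edn1, the ligand of endothelin receptors, was called higher too (0.81). How these calls fared under the alternatives is not given here, and the number of aCap calls varied widely between them. The 5 gCap markers, Plvap and Cd93 among them, summed to 847 and 839 CPM in aCap in room air and to 1120 and 1044 CPM after hyperoxia. Markers of other vessels were higher there too: the 5 arterial markers summed to 348 and 337 CPM, then 422 and 402 CPM, and the 5 venous markers to 33.0 and 37.4 CPM, then 71.2 and 52.4 CPM. Whether gCap RNA in aCap cells had a part in these changes was not tested.

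In the neighbouring vessels Car4 was higher after hyperoxia. In gCap, where 2.53% of 14241 genes were called and 1.35% were higher, Car4 was at 161 and 186 CPM in room air and 213 and 268 CPM after hyperoxia, with no overlap. The log2 change was 0.48 (SE 0.0756, edgeR adjusted p = 0.000224, 1.40-fold). Lymphatic markers in gCap summed to 597 and 524 CPM in room air and to 728 and 744 CPM after hyperoxia, and mesenchymal markers to 16.2 and 14.7 CPM, then 21.4 and 21.1 CPM. Alveolar macrophage markers summed to 27.9 and 23.9 CPM, then 31.0 and 30.0 CPM. Pericyte and smooth muscle markers summed to 27.5 and 21.6 CPM, then 28.0 and 32.0 CPM. Venous markers were lower, at 182 and 187 CPM, then 171 and 161 CPM. None of these overlapped, and their part in the Car4 change was not tested. The Car4 change was 0.52 and called without female hyperoxia cells lacking Xist, and 0.48 and called with doublets left out. It was not called without the male hyperoxia library (0.32), with all 6 libraries in 1 fit (0.49) or without sex as covariate (0.49).

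In arterial cells, where 2.12% of genes were called, Car4 went from 40.6 and 56.2 CPM to 69.4 and 104 CPM, a log2 change of 0.85 (SE 0.132, edgeR adjusted p = 7.98e-08, 1.80-fold). It was 0.88 and called without female cells lacking Xist, but lost its call when 1 of 3 libraries was left out: 0.66 without female room air, 0.56 without male hyperoxia and 1.12 without male room air. It was also not called without sex as covariate (0.88), and DESeq2 gave it no adjusted p (0.85). Prx rose in gCap, from 278 and 245 CPM to 329 and 309 CPM, a log2 change of 0.31 (SE 0.0756, edgeR adjusted p = 0.0227), and was called in 6 of 12 alternatives. Without cells lacking Xist it was 0.32 and called. It was not called without female hyperoxia (0.26), male hyperoxia (0.35) or male room air (0.22). Its arterial value was 0.37 (edgeR adjusted p = 0.0571). In venous cells, where 0.619% were called, no member was.

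The difference between the capillary classes was tested directly, though the classes were clustered on these genes. Car4 changed by 0.42 less after hyperoxia in aCap than in gCap (log2 -0.42, SE 0.0667, edgeR adjusted p = 0.00246), and Prx by 0.26 less (log2 -0.26, SE 0.0488, edgeR adjusted p = 0.00907). In this test 1.12% of genes were called and 0.327% were lower in aCap. Both calls held in all 10 alternatives. Ednrb (-0.31) and Tbx2 (-0.22) were not called, but were called without female hyperoxia cells lacking Xist (-0.38 and -0.29).

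The Car4 counts of single gCap cells were also read. After thinning, 77.8% and 74.7% of gCap cells had no Car4 UMI in room air, and 73.2% and 68.6% after hyperoxia. At least 3 UMIs were found in 2.84% and 3.97%, and then in 3.92% and 5.28%, so these shares overlapped between the exposures. Fibin, with the steepest ratio between the classes, was at -0.00 in gCap (-0.29 to 0.29). Over the same libraries the neutrophil level of Car4 was 15.4 and 8.11 CPM, then 10.2 and 15.5 CPM, and aCap cells were 10.8% and 9.64%, then 11.1% and 14.3% of all cells.

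**Figure D5:**
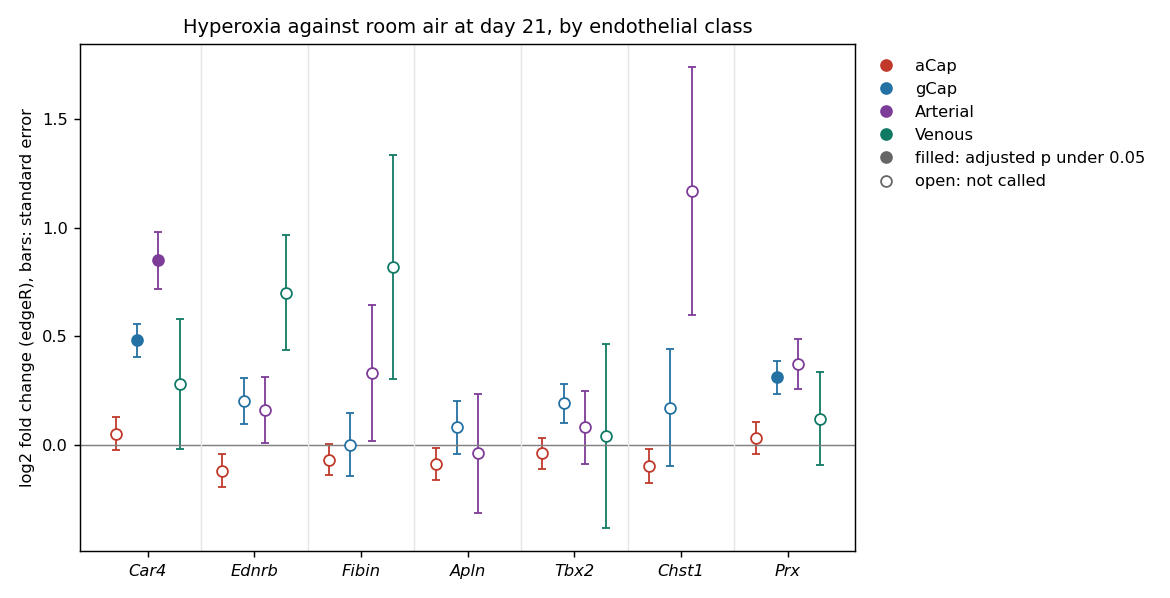
Log2 change after hyperoxia against room air at day 21 (positive is higher after hyperoxia) with its standard error, for each gene in 4 endothelial classes. Car4 stands at 0.48 in gCap and 0.85 in arterial cells, and all 7 genes lie between -0.12 and 0.05 in aCap.

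No member was called between females and males by edgeR or DESeq2 in the 4 endothelial classes, where 0.0749% (aCap), 0.0909% (gCap), 0.234% (arterial) and 0.167% (venous) of genes were called. In aCap the female minus male log2 difference was 0.09 for Car4 (-0.18 to 0.35) and 0.16 for Ednrb (-0.03 to 0.35). Fibin was at -0.15 (edgeR adjusted p = 0.856). Apln, an X-linked gene, was at 0.01 in aCap (-0.17 to 0.20).

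Over those classes 4 member tests had an unadjusted p under 0.05, of Car4 in gCap (-0.18), arterial (-0.40) and venous cells (-0.74) and of Apln in venous cells, all lower in females. Among all genes, 738 of 13354 in aCap, 1249 of 14301 in gCap, 828 of 11514 in arterial and 429 of 9599 in venous cells were under it too. Arterial Car4 was called without either day 1 library (-0.53 in both cases), and Apln in gCap without either day 21 room air library (-0.69 and -0.68). Apln in venous cells had the smallest, with a log2 difference of -1.58 (unadjusted p = 0.000909). Its venous level was 11.4 (female) and 63.1 CPM (male) at day 1, 10.1 and 8.54 CPM in room air at day 21, and 11.6 and 19.1 CPM after hyperoxia. One male newborn library thus stood above the others. The gene was called with no filter on low counts (-1.57), and also when any 1 of the 4 day 21 libraries was left out (-1.89 to -1.96). The sex difference of the hyperoxia change gave no call for a member in any of the 4 endothelial classes, where 0.587% (aCap), 0.267% (gCap), 0.132% (arterial) and 0.173% (venous) of genes were called. There Car4 was at -0.24 (-0.69 to 0.22) in aCap and Fibin at 0.16 (-0.33 to 0.64). With 1 library per sex and condition, the spread in this fit came only from how the sex difference varied between the ages in room air. Outside the vessels it called Car4 in myofibroblasts (-4.08, 0.898% of genes called) and in neutrophils (-1.55, 1.13% called), neither of which DESeq2 called (-3.95 and -1.52). Without female hyperoxia cells lacking Xist the neutrophil value was -1.73 and not called, and myofibroblasts had too few cells to be tested.

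In non-endothelial classes the hyperoxia comparison called members 12 times, 6 of them in alveolar macrophages. There, where 10.9% of genes were called, 9.1% higher and 1.78% lower, 5 members were higher and Car4 lower. Ednrb was at 2.37 and 1.87 CPM in room air and at 34.8 and 16.8 CPM after hyperoxia, a log2 change of 3.53 (SE 0.302, edgeR adjusted p = 2.04e-09). Fibin, Prx, Apln and Tbx2 changed by 3.05, 2.83, 2.76 and 2.49. These 5 calls held in all alternatives tried. All 5 are aerocyte genes, and they rose together in a macrophage class.

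Endothelial markers moved with them. Pecam1, Cdh5, Tie1, Cldn5 and Egfl7 summed to 47.8 and 72.9 CPM in these macrophages in room air and to 677 and 456 CPM after hyperoxia, and to 628 and 277 CPM after hyperoxia with called doublets left out. Cells with at least 5 of the members (member-rich cells) held much of the signal. They were picked by these same genes, so their share is high in part by that choice. In the hyperoxia libraries 7 of 136 and 6 of 308 macrophages had at least 5 of the members, and these cells gave 74.9% and 63.9% of the UMIs of the 6 members other than Car4. With called doublets left out, 7 of 134 and 2 of 283 cells remained and gave 77.0% and 27.2% of those UMIs. In room air it was 4 of 609 and 3 of 348 cells, with 20.8% and 17.8%.

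Car4, which macrophages themselves express, behaved otherwise. It went from 497 and 462 CPM to 275 and 390 CPM in alveolar macrophages, a log2 change of -0.59 (SE 0.131, edgeR adjusted p = 0.00218), and the member-rich cells held 24.5% and 6.94% of its UMIs after hyperoxia. The value was -0.54 and called without cells lacking Xist, and -0.33 and not called without the female hyperoxia library.

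Member-rich cells also held much of the Car4 signal in some male hyperoxia cells of other classes. In myofibroblasts (3.76% called), Car4 was at 4.70 and 2.76 CPM in room air and at 23.6 and 136 CPM after hyperoxia (log2 4.61, edgeR adjusted p = 2.25e-14), and 4 of 68 male cells held 93.5% of its 107 UMIs there. Without the male hyperoxia library the value was 2.69 and not called. Prx was called in that class too (2.41), and with doublets left out neither gene passed the filter on low counts. In B cells (1.68% called), 8 of 141 male hyperoxia cells held 81.4% of 177 Car4 UMIs, and the change was 2.11 (edgeR adjusted p = 0.0364) but -0.11 without that library and 2.13 and called without cells lacking Xist. Nonclassical monocytes (6.03% called) gave Car4 1.27, Ednrb 1.73 and Prx 1.37, all of which lost their calls with doublets left out or without the male hyperoxia library but were called without cells lacking Xist. Of the monocytes, 5 of 595 male hyperoxia cells had at least 5 members and held 57.4% of 115 Car4 UMIs, and 0 of 764 female hyperoxia cells had as many. Pan-endothelial markers in these monocytes summed to 136 and 137 CPM in room air and to 319 and 333 CPM after hyperoxia. In B cells they summed to 652 and 518 CPM, then 1013 and 1932 CPM, and in myofibroblasts to 26.6 and 230 CPM, then 384 and 802 CPM. The part of endothelial RNA in these calls was not tested.

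Over 112 pairs of class and library, the genes whose log2 level followed each member most closely were ranked by Pearson correlation over 13424 genes. The points share libraries and depth. Prx was closest to Kitl, the stem cell factor gene (0.967), Pcdh12 (0.963) and Scn7a (0.962). Tbx2 was closest to C1qtnf2 (0.929), Fibin to Tbx3os1 (0.883) and Tbx2 (0.882), Ednrb to Enho (0.883) and Tbx3 (0.881), and Apln to Kdr, the main growth factor receptor of endothelium (0.892). Chst1 (Enho, 0.844) and Car4 (Cpne8, 0.792) had the loosest neighbours. Between members the correlation ran from 0.578 for Car4 with Ednrb to 0.882 for Fibin with Tbx2.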

How the data were processed

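Lungs of C57BL/6N mice were dissociated, live cells were sorted, and each 10x Genomics 3-prime library held cells of 3 pooled mice (per the labels' protocols). The authors deposited UMI counts by gene and barcode, produced with Cell Ranger 6.0.0 (day 1) and 7.0.1 (day 21), per the file headers. The submitters' processing notes also name Seurat 4.1.1 and mm10. Whether intron reads were counted is not given in the sources used here. Classes were the authors' deposited cluster names, and barcodes without one entered no comparison.

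Counts of a class were summed in each library, for classes of 50 or more cells in all libraries compared, then filtered with filterByExpr and scaled with TMM. Under R 4.3.3, edgeR 4.0.16 (with limma 3.58.1) gave a quasi-likelihood test over all genes of a class. A gene was called at a Benjamini-Hochberg adjusted p under 0.05. Age and hyperoxia used 4 libraries with sex as covariate (1 residual degree of freedom), and sex used all 6 with condition. The difference of the hyperoxia change between sexes used all 6, with condition and sex. Intervals given in brackets are approximate 95% intervals from the SE. Poisson and binomial intervals cover counting error only, and the floor of a count of 0 was 3 UMIs per library. Sums over a class do not tell more RNA per cell from a changed mix of cells. The fits were tested on simulated counts.

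The alternatives tried were DESeq2 1.42.0, no covariate, no low-count filter, upper-quartile scaling, all 6 libraries in 1 fit, each library left out in turn (dropping the covariate where needed), doublets left out, a stricter cell filter (at least 1000 genes, at most 10% mitochondrial UMIs), thinning to 2000 UMIs, scaling on genes without introns (age, added after seeing the data) and, for hyperoxia and sex, female hyperoxia cells without Xist left out. Doublets were cells above a fixed Scrublet score of 0.25 (scanpy 1.11.5), because the automatic threshold failed in 2 libraries. They were 1.16% to 3.43% of the cells of a library.

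The members were named in every comparison. From each list at most the 4 called genes with the largest change in each direction in aCap were named, and the genes closest in pattern were the top 3 by correlation of log2(CPM + 1) to each member. The members and lists were chosen with earlier results of these data known.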

Additional observations from a re-analysis of the deposited data

Results flagged for a closer look

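The age change differed between aCap and gCap for 6 genes, as log2 differences of 2.69 for Ednrb, 2.24 for Fibin, 1.71 for Chst1, 1.42 for Apln, 0.62 for Tbx2 and -0.57 for Car4. Tbx2 and Car4 were not called with DESeq2 (0.64 and -0.54), and Car4 was -0.17 and not called without the female day 1 library. After thinning, Chst1 was 1.06 and Car4 -0.94, both called. The hyperoxia change differed between these classes for Car4 (-0.42) and Prx (-0.26). The classes were clustered on these genes, and the part of that in these differences was not tested.

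The hyperoxia change of Car4 was called between the sexes in 2 non-endothelial classes, in a fit where each sex and condition is 1 library and the spread comes only from how the sex difference varied between the ages in room air. In myofibroblasts (0.898% of genes called) the female minus male log2 difference was -4.08 (edgeR adjusted p = 1.53e-05), with 136 CPM in male and 23.6 CPM in female cells after hyperoxia and 107 and 20 UMIs behind these levels. Of those UMIs, 4 of 68 male cells held 93.5% and 2 of 73 female cells 70%. In neutrophils (1.13% of genes called) it was -1.55 (edgeR adjusted p = 0.0259), with levels between 8.11 and 15.5 CPM at day 21. DESeq2 called neither, at -3.95 and -1.52. The neutrophil value was also not called without female hyperoxia cells lacking Xist (-1.73), with doublets left out (-1.32) or with upper-quartile scaling (-1.58). Myofibroblasts had under 50 cells without the cells lacking Xist and were not tested that way.

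Barcodes to which the authors gave no class also held the genes. The 7 together were at 190.8 (female) and 217.5 CPM (male) in these barcodes at day 1, at 942.4 and 697.8 CPM in room air at day 21, and at 519.1 and 579.1 CPM after hyperoxia. There were 2457 to 3938 such barcodes in a library.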

How the results depend on the processing

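No paired analysis was possible because replicate numbers pair nothing here, each sex and condition having 1 library with the number 1. Sex was a covariate, and the comparisons of aCap with gCap had library as a term.

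Counts below are genes called in aCap unless named otherwise, and pairs are called pairs of member and class. For hyperoxia, 92 aCap genes became 37 with DESeq2, 11 with all 6 libraries, 429 without doublets, 346 unfiltered, 8 without covariate, 153 with upper-quartile scaling and 82 to 541 with a library left out. The 361 gCap genes became 78, 56, 556 (without doublets), 18 (without covariate) and 125 to 710. The 3 endothelial pairs became 1 with DESeq2 or all 6 libraries, 0 without covariate and 0 to 2. The 12 other pairs became 7, 5 (with all 6 libraries, where the 3 of nonclassical monocytes could not be tested for want of day 1 cells), 7 (without doublets, where the 2 of myofibroblasts did not pass the filter), 24 (unfiltered), 6 (without covariate) and 7 to 18.

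For age, 6464 genes became 3419 with DESeq2, 3765 after thinning and 4962 to 5779 with a library left out, 9227 gCap genes became 7477 to 8118, 7 aCap members 4 with DESeq2 and 5 to 7, 23 endothelial pairs 12, 14 and 16 to 20, and 14 other pairs 7, 6 and 11 to 12. For the age change between capillary classes, 3503 genes became 1674, 1779 and 2202 to 3346, and 6 members 4 with DESeq2 and 5 to 6. For the hyperoxia change, 158 genes became 75 with DESeq2, 386 unfiltered and 112 to 224, and 2 members 4 unfiltered or without cells lacking Xist and 2 to 3.

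For sex, 10 aCap genes became 16 without doublets, 4 without covariate, 87 unfiltered and 11 to 122, 13 gCap genes 25 with DESeq2, 3 without covariate, 141 unfiltered and 54 to 101, 0 endothelial pairs 1 unfiltered and 1 to 2, and 0 other pairs 2 unfiltered and 0 to 1. For sex by hyperoxia, 82 aCap genes became 5 with DESeq2 and 31 without doublets, 40 gCap genes 5, 10 and 23 (without cells lacking Xist), and 2 other pairs 0 with DESeq2, 0 without those cells (where myofibroblasts, with 1 of the pairs, could not be tested), 6 without doublets and 5 unfiltered or with the stricter filter; no library could be left out there, for want of residual degrees of freedom.

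Reversed values were Car4 in B cells after hyperoxia (-0.11 without male hyperoxia, up to 4.45 without male room air), Apln in gCap with age (0.18 with intronless scaling, -1.04 to 0.20 with a library left out) and Ednrb in myofibroblasts with age (0.31 with intronless scaling). Without thinning, at least 5 members were found in 68.6% of aCap cells at day 1 and 99.3% at day 21. The median aCap level of Tbx2 over the 4 day 21 libraries was 945.7 CPM, and 983.5 CPM after thinning. The causes were not tested. Of the other single values, 1471 kept direction and side of the threshold, 122 lost and 21 gained a call. Depth limits Chst1 and Apln outside aCap, at levels of few UMIs.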

Other observations

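Averaged over the 7 members, the genes closest in pattern over 112 pairs of class and library were Gnao1 and Kitl (mean correlation 0.789 each), and the 10 closest also held Enho, Tbx3, Pmp22, Tbx3os1 and Kdr. The antisense transcript Tbx3os1 was at 118 (female) and 98.1 CPM (male) in aCap at day 1, at 829 and 854 CPM in room air at day 21, and at 782 and 796 CPM after hyperoxia. The ages did not overlap, and the hyperoxia libraries lay below both room air libraries.

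In gCap at day 21, 10 of 12 general capillary genes were called higher and 1 lower, and 9 of 14 other aerocyte-associated genes were called higher and 3 lower, where 35.1% of all genes were called higher and 32.5% lower. After hyperoxia Igfbp7 (0.75) and the co-receptor gene Nrp2 (0.91) were called higher in gCap, and Vegfc (-0.39) and Cadm1 (-0.33) lower, on the log2 scale. No gene of the lists was called between the sexes in aCap or gCap by edgeR.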
